A study of Mus musculus with 18 samples.

Results

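The heart burns mostly fatty acids, and 36 genes of that pathway were followed through 18 RNA-seq libraries of mouse left ventricle. The genes were given as a list and found by symbol. The list was chosen with earlier results of these data known. All 36 were among the 14876 genes that passed the low-count filter, out of 38355 identifiers in the count tables. They were ordered by role into uptake (6 genes), activation (1), the carnitine shuttle (5), beta-oxidation (12), electron transfer (3), thioesterases and uncoupling (3), the lipid store (2) and the PPAR, PGC1 and ERR regulators (4).

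All mice were (DBA/2J x C3HeB/FeJ)F1. Mice labelled MHC-cycD2 carry a cyclin D2 transgene driven in heart muscle by a myosin heavy chain promoter, and are called cycD2 below. There were 5 libraries of cycD2 hearts with an aortocaval shunt, an opening between aorta and vena cava that gives volume overload (Shunt), and 3 of cycD2 hearts with transverse aortic constriction, a pressure overload (TAC, replicates 1, 2 and 4). They were set against 5 libraries of cycD2 hearts with a sham operation, and those against 5 of wild type hearts with no treatment (WT). Surgery was at 8 weeks of age; the time between surgery and sampling, and which of the 2 sham procedures was used, are not given in the sources used here. Sham and WT differ both in the transgene and in the operation, which cannot be told apart, and no library is labelled as from an operated wild type mouse. By the labels, pressure and volume overload are seen only on top of the transgene. Nothing in the labels says whether libraries came from separate mice, and p-values measure the spread between these libraries.

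Long-chain fatty acids reach the heart muscle cell through lipoprotein lipase at the vessel wall and through membrane transporters, and are bound by fatty acid binding proteins. Acyl-CoA synthetase traps them as acyl-CoA, the carnitine shuttle carries the acyl group into the mitochondrion, and beta-oxidation cuts it down in repeated rounds of dehydrogenation, hydration, dehydrogenation and thiolysis. Electrons of the first dehydrogenation pass through the electron transfer flavoprotein to the respiratory chain. The nuclear receptor PPARα and the estrogen-related receptors switch on most of these genes, with PGC1 proteins as their coactivators, and lower activity of this network is a textbook feature of the pressure-overloaded and failing heart.

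Facts on the libraries as a whole bear on every result. Depth was 19297821 to 30594075 gene counts. Ccnd2, the transgene, was at 17739 to 30478 CPM in 12 of the 13 libraries labelled cycD2 and at 141 to 189 CPM in WT, but the library labelled cycD2 TAC replicate 2 had 228 CPM. It goes against its label, so by this gene 1 of the 3 TAC libraries shows no transgene excess, and the counts of calls that involve TAC are also given without it. Y-linked transcripts were near absent in all Shunt libraries and in TAC 1 and 2 and present in TAC 4 and in all sham and WT libraries. For Shunt against sham, that difference and the operation cannot be told apart. The clock gene Arntl was above Dbp in all TAC libraries, sham 1 and 2 and WT 1 to 3, and below it in all Shunt libraries, sham 3 to 5 and WT 4 and 5, so the libraries fall into 2 clock states. Reads in no annotated gene were 15.03% to 19.87% in Shunt, 13.64% to 14.86% in TAC, 14.91% to 17.90% in sham and 19% to 22.78% in WT. The lowest values were in TAC, and the part of this share in the results was not tested.

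Levels are CPM, counts scaled to library size and TMM factor. Fold changes are on the log2 scale, with the SE, from edgeR's quasi-likelihood test over all genes, and a gene was called, and is said to have risen or fallen, at a Benjamini-Hochberg adjusted p under 0.05. The mean ± SD is over the libraries of a group, and n is 5 for Shunt, 3 for TAC, 5 for sham and 5 for WT throughout. Counts at an unadjusted p, and counts of genes whose groups do not overlap, were made for listed genes only. No share of all genes stands beside them.

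Promoter sequence was looked at because PPARα with its partner RXR binds a direct repeat of the core motif AGGTCA with a single base between, and the estrogen-related receptors bind TCAAGGTCA, which holds the same core motif. RefSeq windows of GRCm38.p6, from 250 bases before to 50 bases after a start site, matched 28 of the 36 genes in 32 windows. On either strand, the core motif was in 8 of 32 windows, those of 7 genes (Acadm, Cd36, Ucp3, Echs1, Acadvl, Plin5 and Cpt1a), and in 16.3% of all 32851 windows. TCAAGGTCA was in 0 of 32 windows and in 0.423% of all. The full repeat, AGGTCANAGGTCA, with N for any base, was in 0 of 32 and in 0.0396% of all. A match is only a run of letters, and its absence says nothing of sites outside the window. Ucp3 is shown because it had the largest fold change of the 36 after TAC and its window was the only one of the 32 with 2 core motifs, at -149 and -44 from the start (chr7:100472741-100473040, + strand). Acadm is shown as the gene with a core motif that had the smallest p against WT (chr3:153944594-153944893, - strand; the site begins at -249 and reads TGACCT on the gene's strand). Capitals mark the core motifs in both.
Ucp3: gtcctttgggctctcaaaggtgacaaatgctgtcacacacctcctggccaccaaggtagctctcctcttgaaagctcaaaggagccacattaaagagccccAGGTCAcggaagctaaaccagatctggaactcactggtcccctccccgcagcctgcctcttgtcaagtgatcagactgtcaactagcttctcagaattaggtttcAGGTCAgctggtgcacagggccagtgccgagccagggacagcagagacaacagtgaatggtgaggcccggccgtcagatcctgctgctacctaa
Acadm: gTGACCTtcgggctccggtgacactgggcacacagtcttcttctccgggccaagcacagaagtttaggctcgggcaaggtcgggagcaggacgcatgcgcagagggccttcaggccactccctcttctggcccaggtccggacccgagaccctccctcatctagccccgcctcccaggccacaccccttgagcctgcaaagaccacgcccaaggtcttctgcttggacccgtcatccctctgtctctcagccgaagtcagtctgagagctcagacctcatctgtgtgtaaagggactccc

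Hadha and Hadhb encode the alpha and beta subunits of the mitochondrial trifunctional protein, which carries out the last 3 reactions of a beta-oxidation round for long chains. The genes lie head to head on chromosome 5, and RefSeq places their start sites 273 bases apart, at 30154980 for Hadha on the - strand and at 30155253 for Hadhb on the + strand. The Hadhb window (chr5:30155003-30155302, + strand) is shown because both genes share it: capitals mark the 228 bases that also lie in the window of Hadha.
Hadhb: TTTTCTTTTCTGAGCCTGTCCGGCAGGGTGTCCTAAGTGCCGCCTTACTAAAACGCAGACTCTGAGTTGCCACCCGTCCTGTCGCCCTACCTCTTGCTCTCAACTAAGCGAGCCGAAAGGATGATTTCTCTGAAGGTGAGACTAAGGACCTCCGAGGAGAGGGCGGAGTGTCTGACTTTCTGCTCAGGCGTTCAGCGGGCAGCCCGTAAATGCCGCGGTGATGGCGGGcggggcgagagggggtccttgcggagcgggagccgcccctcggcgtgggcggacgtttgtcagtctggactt

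Summed over the 36 genes, the level was 23939 ± 676 CPM in Shunt, 16482 ± 2425 CPM in TAC, 24967 ± 1060 CPM in sham and 28913 ± 977 CPM in WT. The 3 TAC libraries held 14357 to 19123 CPM, below every other library. The TAC mean was the lowest of the 4 group means for 33 of the 36 genes, and the WT mean the highest for 22. The exceptions to the first were Angptl4, Fabp4 and Acot13. In bulk tissue, fewer cells of a type and less RNA per cell cannot be told apart.

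**Figure D1:**
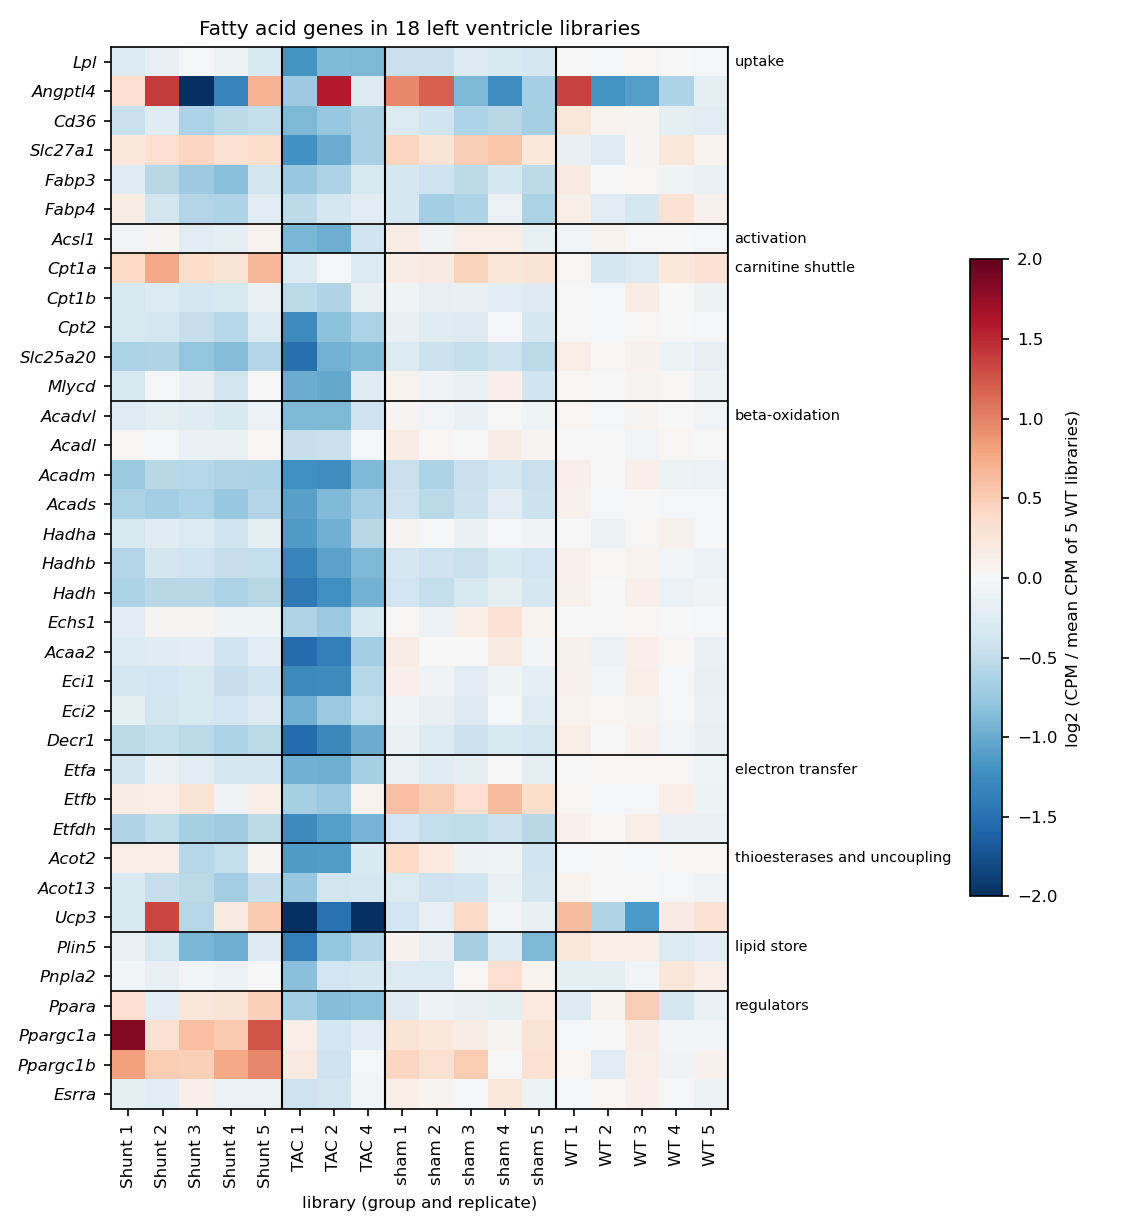
Level of each of the 36 genes (rows, by step) in each of the 18 libraries (columns, by group), as log2 of the CPM over the mean CPM of the 5 WT libraries, with blue below and red above WT. The 3 TAC columns are blue in most rows, and Angptl4 and Ucp3 vary within groups.

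**Figure D2:**
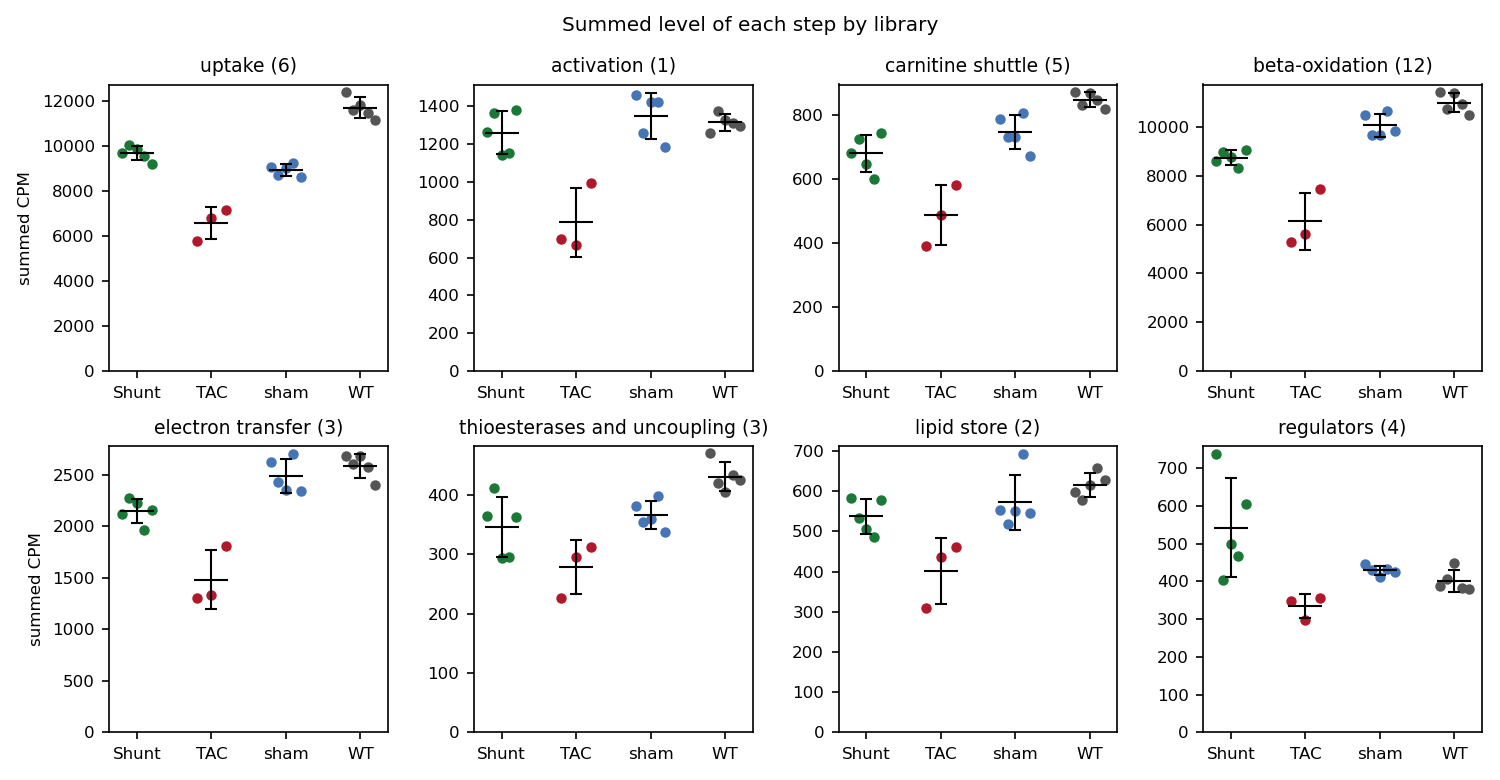
Summed CPM of the genes of each step (number of genes in brackets) in each library (points), with the mean and SD of each group, for Shunt, TAC, sham and WT from left to right. The TAC libraries lie below all sham libraries in every step, and WT lies above sham in uptake.

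By step, beta-oxidation enzymes summed to 8739 ± 299 CPM in Shunt, 6128 ± 1162 CPM in TAC, 10065 ± 464 CPM in sham and 11003 ± 407 CPM in WT. Uptake genes summed to 9685 ± 310 CPM in Shunt, 6582 ± 713 CPM in TAC, 8947 ± 258 CPM in sham and 11712 ± 472 CPM in WT. The groups differ in order between these steps: Shunt was above sham in the mean for uptake and below it for beta-oxidation, where the Shunt range of 8310 to 9041 CPM lay under the sham range of 9677 to 10657 CPM. Regulators summed to 543 ± 131 CPM in Shunt, 334 ± 30.8 CPM in TAC, 429 ± 11.6 CPM in sham and 401 ± 28.9 CPM in WT. The sums are not scaled to length, and single abundant genes weigh most in them. Lpl had 5270 to 6503 CPM in Shunt and 4845 to 5527 CPM in sham, the largest part of the uptake sums. Among regulators Ppargc1a had 159 to 461 CPM in Shunt and 134 to 157 CPM in sham. No gene of the 36 was called in Shunt against sham.

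Per kilobase of exon, levels in WT spanned from 1759 ± 150 CPM per kb for Fabp3 to 2.23 ± 1.99 CPM per kb for Angptl4. After Fabp3, the most abundant per length in WT were Acadl at 853 ± 19.2, Cd36 at 797 ± 105 and Acaa2 at 672 ± 50.9 CPM per kb. The regulators were low, with Ppara at 11.9 ± 2.93 and Ppargc1b at 5.52 ± 0.508 CPM per kb in WT. Cpt1b, the muscle form of carnitine palmitoyltransferase 1, was listed at only 15.9 ± 1.04 CPM per kb, and Cpt1a, the liver form, at 7.62 ± 1.49 CPM per kb. In GENCODE M21, 81.4% of the exon bases of Cpt1b also belong to the readthrough gene Gm44502, which was not analysed here, so the level of Cpt1b is uncertain. The same holds for Etfb, of which 58.2% of the exon bases are shared, chiefly with Gm45233, and for Acadvl, of which 42.9% are overlapped by Dvl2 on the other strand, since the library kit does not keep strand.

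The first comparison, sham with WT, asks what the transgene, with the sham operation, does to these genes before any overload. Sham hearts had lower levels of fatty acid uptake genes and of part of the oxidation enzymes, and the changes were modest. Of the 36 genes, 12 fell and 2 rose, where 14.9% of all genes fell and 13.5% rose. The median over the 36 was -0.09, against -0.01 over all genes. Scaling by 12 heart muscle markers moved the median of all genes to -0.16 and that of the 36 to -0.24, with 30 of 36 below 0 in place of 24. Of all genes 726 then rose and 2565 fell, in place of 2004 and 2223.

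Of the uptake genes 4 of 6 fell and 1 rose. Cd36, the main long-chain fatty acid transporter of heart muscle (chr5:17781690-17888801, - strand), had 2336, 2161, 1864, 1953 and 1806 CPM in sham, against 3340, 3019, 2987, 2510 and 2449 CPM in WT. Every sham library was below every WT library, and the log2 fold change was -0.50 ± 0.10 (adjusted p = 0.0011). Lpl, the lipoprotein lipase that frees fatty acids from triglyceride, fell by 0.36 ± 0.07, to 5153 ± 296 CPM in sham against 6595 ± 92.1 CPM in WT (adjusted p = 0.0013). The binding proteins Fabp3, of heart muscle, and Fabp4, of capillary endothelium and fat, fell by 0.43 ± 0.11 and 0.46 ± 0.15. For Fabp4 the groups overlapped (adjusted p = 0.0284), and its call was lost without any 1 of 6 libraries (sham 2, 3 and 5 and WT 1, 4 and 5; adjusted p = 0.0560 to 0.0982). Slc27a1, another fatty acid transport protein, rose to 234 ± 23.5 CPM in sham, against 178 ± 22.8 CPM in WT (0.40 ± 0.10, adjusted p = 0.0075), a call lost under the marker scaling (0.25, adjusted p = 0.0721). Angptl4, a secreted inhibitor of lipoprotein lipase, had 3.33 to 18 CPM in sham and 3.45 to 20.2 CPM in WT, and was not called.

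In the carnitine shuttle 1 of 5 genes fell: Slc25a20, the carnitine-acylcarnitine translocase of the inner membrane, with 165, 147, 143, 149 and 137 CPM in sham and 217, 203, 210, 186 and 178 CPM in WT. The groups did not overlap (-0.42 ± 0.10, adjusted p = 0.0035). Cpt1a, Cpt1b, Cpt2 and Mlycd, and the synthetase Acsl1, were not called, with log2 fold changes of -0.20 to 0.26.

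Beta-oxidation was split by enzyme. Acadm, the medium-chain acyl-CoA dehydrogenase, had 1205, 1064, 1206, 1300 and 1205 CPM in sham, against 1748, 1646, 1752, 1533 and 1509 CPM in WT. All sham values lay below all WT values, with a log2 fold change of -0.45 ± 0.08 (adjusted p = 2.88e-04). The short-chain dehydrogenase Acads (-0.40 ± 0.07), Hadhb (-0.38 ± 0.07), the short-chain hydroxyacyl-CoA dehydrogenase Hadh (-0.34 ± 0.08) and the dienoyl-CoA reductase Decr1 (-0.30 ± 0.08) fell too. The other 7, among them the long-chain and very long-chain dehydrogenases Acadl and Acadvl, Hadha and the thiolase Acaa2, were not called and lay between -0.15 and 0.08.

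The transcript levels of subunits of shared machines did not keep their proportion. Hadha over Hadhb was 6.89 to 7.49 in sham and 5.22 to 6.25 in WT, in CPM not scaled to length. For the electron transfer flavoprotein, the beta subunit Etfb rose by 0.49 ± 0.12 (adjusted p = 0.0055) while the alpha subunit Etfa, at -0.15 ± 0.07, was not called. Etfb over Etfa was 1.21 to 1.39 in sham and 0.796 to 0.902 in WT, subject to the doubt on Etfb. The calls of Hadhb and Etfb were lost within the libraries with Arntl above Dbp and kept within those with Dbp above Arntl. The dehydrogenase Etfdh, which hands the electrons to ubiquinone, had 810, 752, 743, 784 and 721 CPM in sham and 1130, 1077, 1157, 972 and 967 CPM in WT. It had the smallest p of the 36 in this comparison (-0.48 ± 0.07, adjusted p = 1.25e-04), with no overlap between groups.

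Among the rest, the thioesterase Acot13 fell, with 268, 245, 248, 299 and 253 CPM in sham and 344, 330, 326, 323 and 311 CPM in WT (-0.32 ± 0.08, adjusted p = 0.0077). Each sham library was below each WT library. Acot2, the uncoupling protein Ucp3, the lipid droplet genes Plin5 and Pnpla2 and all 4 regulators were not called. The regulator nearest the threshold was Ppargc1b, at 27.4 ± 3.5 CPM in sham and 22 ± 2.03 CPM in WT (0.31 ± 0.12, adjusted p = 0.0568). Markers of other cells moved too. Of 12 endothelial markers 6 fell, summing to 1278 to 1616 CPM in sham and 1530 to 1978 CPM in WT, and of 9 smooth muscle and pericyte markers 3 fell. Of 5 tested atrial markers 3 rose, summing to 82.9 to 777 CPM in sham and 25.7 to 52.8 CPM in WT, and 4 of 4 tested skeletal muscle markers rose, with sums of 21.3 to 36.1 CPM in sham and 2.13 to 3.56 CPM in WT. Their part in these results was not tested. Within the libraries with Dbp above Arntl (3 sham, 2 WT), 7 genes fell and 1 rose, and within those with Arntl above Dbp (2 sham, 3 WT) 3 fell. Acadm, Acads and Etfdh were called in both, and Lpl, Slc27a1, Fabp3, Fabp4, Hadh and Acot13 in neither of these smaller fits.

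Pressure overload was the second question. After TAC, nearly the whole oxidation pathway was lower than in sham-operated cycD2 hearts. Of the 36 genes, 29 fell and 0 rose, where 14.5% of all genes fell and 16.4% rose. The log2 fold change was below 0 for 34 genes under TMM, for 34 under relative log expression scaling and for 30 when scaled by the heart muscle markers, where Cpt1b turned to 0.04 (adjusted p = 0.8188). The median was -0.63, against 0.01 over all genes. At an unadjusted p under 0.05, 31 genes were lower and 0 higher, and DESeq2 called 29 lower and 0 higher. Without the library labelled cycD2 TAC replicate 2, 26 genes fell, Cpt1b, Ppargc1b and Esrra no longer being called; the median was again -0.63, and the 12 beta-oxidation enzymes, all called, lay between -1.14 and -0.33.

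**Figure D3:**
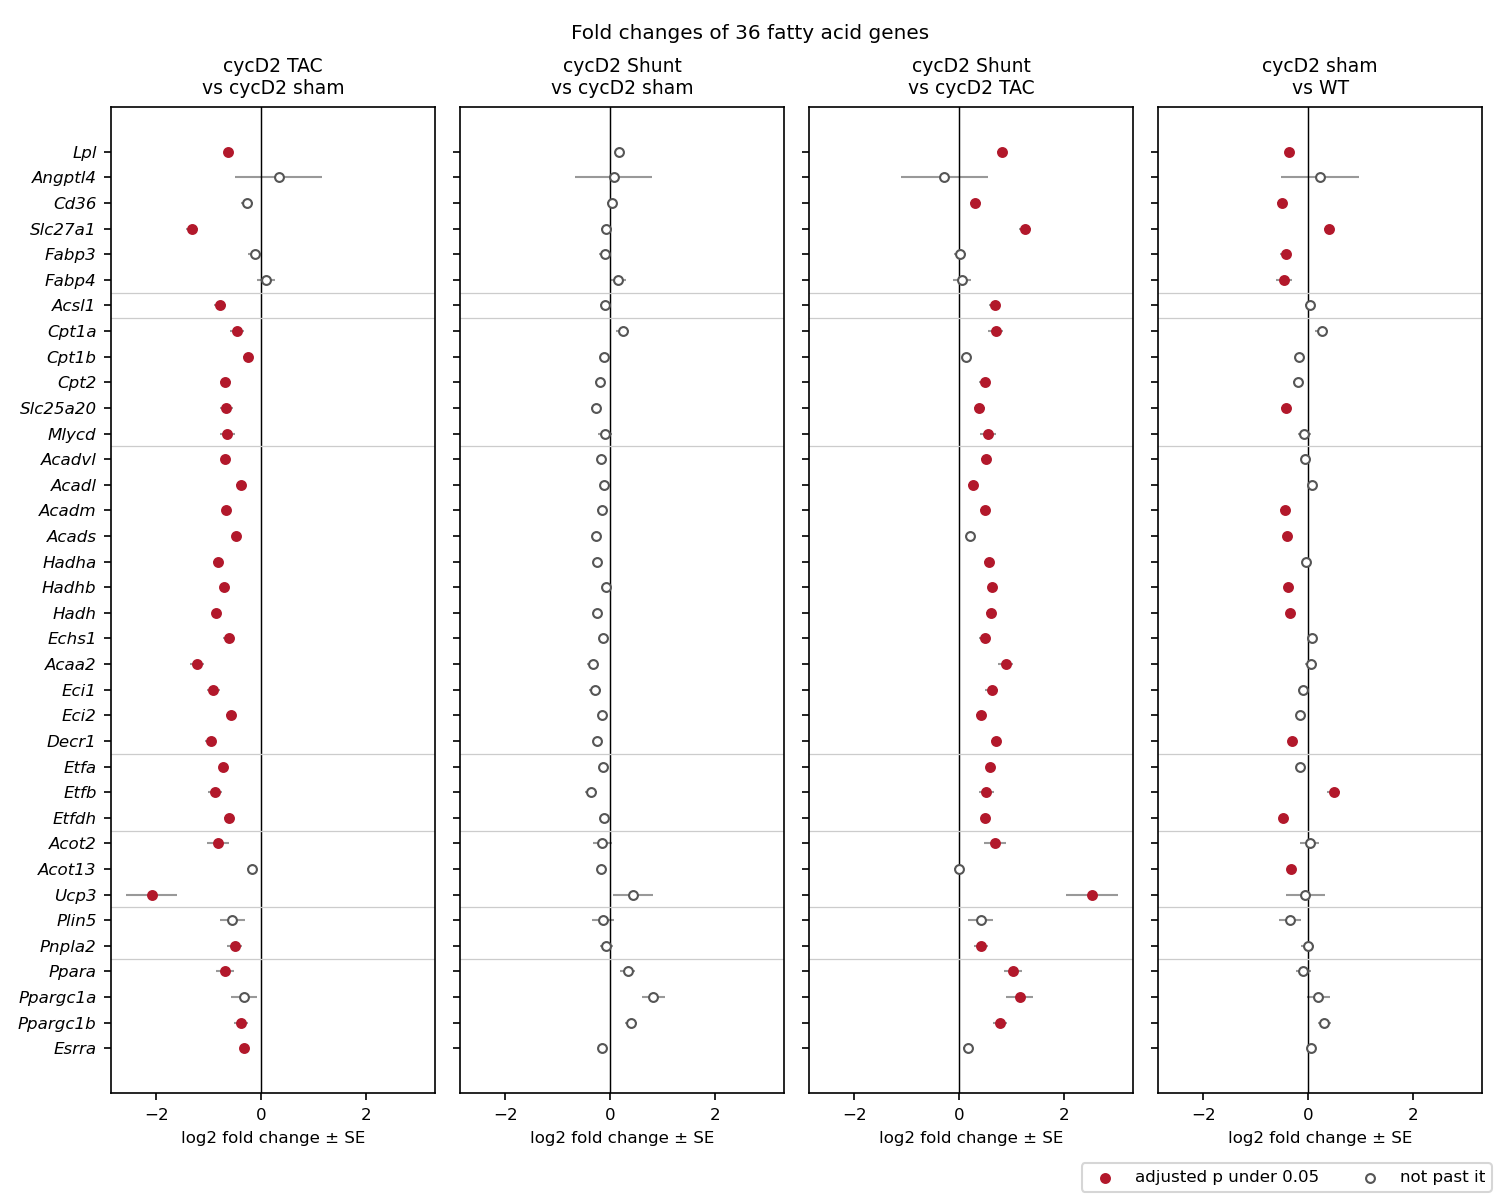
log2 fold change ± SE of each gene in the 4 comparisons, with filled points for an adjusted p under 0.05. After TAC, 29 genes lie filled to the left of 0; in Shunt against TAC, 28 lie filled to the right; in Shunt against sham none is filled.

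Of the 6 uptake genes 2 fell, a fatty acid transport protein and the lipase. Slc27a1 (chr8:71568882-71587302, + strand) had 77.1, 89.2 and 114 CPM in TAC 1, 2 and 4, against 239, 215, 250, 261 and 205 CPM in sham. The highest TAC library was far below the lowest sham library, and the log2 fold change was -1.32 ± 0.12 (adjusted p = 3.68e-06), the smallest p of the 36. Lpl fell by 0.63 ± 0.08, to 3327 ± 386 CPM in TAC against 5153 ± 296 CPM in sham, a call lost under the marker scaling. The other 4 uptake genes were not called. Cd36 had 1530, 1686 and 1816 CPM in TAC and 1806 to 2336 CPM in sham, so that only TAC 4 reached into the sham range (-0.27 ± 0.11, adjusted p = 0.0781, and -0.33, adjusted p = 0.0331, with the replicate number as a block). Fabp3 had 852, 948 and 1162 CPM in TAC and 1002 to 1139 CPM in sham (-0.12 ± 0.12, adjusted p = 0.4779). TAC 4 was above all sham libraries and TAC 1 and 2 below them. Fabp4 had 435, 490 and 530 CPM in TAC and 388 to 572 CPM in sham (0.10 ± 0.17, adjusted p = 0.6933). Angptl4 had 4.75, 23.7 and 6.57 CPM in TAC and 3.33 to 18 CPM in sham, a spread within groups that covers any difference (0.34 ± 0.83, adjusted p = 0.7881).

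Activation and the carnitine shuttle fell in all 6 genes. Acsl1, the main long-chain acyl-CoA synthetase of heart (chr8:46471037-46536051, + strand), had 697, 667 and 994 CPM in TAC, against 1463, 1258, 1425, 1423 and 1185 CPM in sham. TAC 4 was nearest to sham but still below all of it (-0.78 ± 0.11, adjusted p = 8.93e-05). Cpt2, the inner-membrane carnitine palmitoyltransferase (chr4:107903981-107923610, - strand), had 159, 217 and 246 CPM in TAC, against 345, 322, 319, 376 and 301 CPM in sham (-0.68 ± 0.11, adjusted p = 2.01e-04). The groups did not overlap. Slc25a20 (-0.66 ± 0.12) and Mlycd (-0.64 ± 0.15), the malonyl-CoA decarboxylase that removes the inhibitor of the outer-membrane enzyme, fell by a like amount. Slc25a20 was not called under the marker scaling, nor Mlycd within the libraries with Arntl above Dbp. With the Y-linked covariate none of the 6 genes was called.

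The outer-membrane forms are Cpt1a and Cpt1b. Cpt1a had 47.9, 56.8 and 47.5 CPM in TAC and 64.6, 66.2, 79.1, 68.6 and 70.2 CPM in sham, with no overlap (-0.46 ± 0.14, adjusted p = 0.0186). Its call was lost without TAC 1 or TAC 4 (adjusted p = 0.0622 to 0.0761), with the clock covariate (-0.33, adjusted p = 0.1231), within the libraries with Arntl above Dbp (-0.37, adjusted p = 0.0985) and under the marker scaling (-0.12, adjusted p = 0.5498). Cpt1b had 36.8, 35.2 and 48.3 CPM in TAC and 50.8, 47.8, 48.4, 46.5 and 45 CPM in sham (-0.25 ± 0.09, adjusted p = 0.0400). TAC 4 lay inside the sham range for Cpt1b, and its call was lost without the library labelled TAC 2 (-0.18, adjusted p = 0.1901), without TAC 1, sham 1 or sham 3 (lowest adjusted p = 0.0668) and with the replicate block (adjusted p = 0.0764). Cpt1a over Cpt1b was 0.985 to 1.61 in TAC and 1.27 to 1.63 in sham.

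In beta-oxidation all 12 enzymes fell, with log2 fold changes between -1.22 and -0.38. TAC and sham did not overlap for any of them, a count not made over all genes. Under the marker scaling Acadl, Acads and Eci2 were not called. Acadl and Acads were also not called within the libraries with Arntl above Dbp. With the Y-linked covariate Acadl, Acads, Echs1 and Eci2 were not called. Decr1, which readies polyunsaturated chains for oxidation (chr4:15917240-15945507, - strand), had 181, 217 and 267 CPM in TAC, against 483, 435, 394, 429 and 412 CPM in sham. Its level in TAC was 0.515 of that in sham (-0.96 ± 0.10, adjusted p = 8.74e-06). Acaa2, the thiolase that closes the round for medium chains, fell furthest, to 456 ± 149 CPM in TAC against 1060 ± 76.1 CPM in sham (-1.22 ± 0.14, adjusted p = 1.43e-05). The isomerase Eci1 fell by 0.91 ± 0.13, Hadh by 0.85 ± 0.09, Hadha by 0.82 ± 0.10 and Hadhb by 0.71 ± 0.08. Among the acyl-CoA dehydrogenases, which each act on a range of chain lengths, Acadvl was at -0.68 ± 0.09, Acadm at -0.66 ± 0.09, Acads at -0.47 ± 0.08 and Acadl, the long-chain form, at -0.38 ± 0.09. The hydratase Echs1 (-0.62 ± 0.10) and the isomerase Eci2 (-0.57 ± 0.09) lay between.

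Electron transfer fell in 3 of 3 genes. Etfa (chr9:55454508-55512243, - strand) had 425, 420 and 524 CPM in TAC, against 759, 703, 727, 836 and 730 CPM in sham (-0.72 ± 0.08, adjusted p = 1.48e-05). Etfb fell by 0.88 ± 0.14 and Etfdh by 0.62 ± 0.08. Every TAC library was below every sham library for all 3. Etfdh was not called under the marker scaling, nor Etfb with the Y-linked covariate. Etfb over Etfa was 1.04, 0.996 and 1.4 in TAC 1, 2 and 4 and 1.21 to 1.39 in sham.

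Ucp3, a mitochondrial carrier of muscle that rises with fatty acid supply, had 5.59, 15.1 and 8.12 CPM in TAC, against 32.5, 38.1, 55.4, 41 and 38.4 CPM in sham (chr7:100472990-100486432, + strand; its promoter is printed above). This was the largest fold change of the 36, to 0.234 of the sham level (-2.09 ± 0.49, adjusted p = 0.0048), and the groups were apart. The Ucp3 call was lost within the libraries with Arntl above Dbp and with the Y-linked covariate. Acot2, a mitochondrial thioesterase, fell by 0.83 ± 0.21, but has a near-identical neighbour, Acot1, so that its reads are uncertain. Acot13 was not called (-0.17 ± 0.09). In the lipid store, Pnpla2, the adipose triglyceride lipase, had 234, 321 and 330 CPM in TAC, against 343, 341, 426, 529 and 440 CPM in sham (-0.50 ± 0.14, adjusted p = 0.0126). TAC 4 and sham 2 were close to each other, and the call was lost without TAC 1 (-0.35, adjusted p = 0.0897). Plin5, the perilipin that ties lipid droplets to mitochondria, was at 107 ± 28.2 CPM in TAC and 156 ± 41.3 CPM in sham and was not called (adjusted p = 0.0957). It was called lower with the clock covariate, within the libraries with Arntl above Dbp and without sham 5.

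Of the regulators, 3 of 4 fell. Ppara (chr15:85734983-85802819, + strand) had 28.5, 24.9 and 25.9 CPM in TAC, against 38, 42.3, 41.2, 40.2 and 52.1 CPM in sham. The TAC libraries were close together and all below sham (-0.69 ± 0.17, adjusted p = 0.0054). Ppargc1a, which encodes PGC1α, had 142, 98.8 and 111 CPM in TAC and 156, 149, 143, 134 and 157 CPM in sham. Only TAC 1 was within the sham range, and the gene was not called (-0.33 ± 0.25, adjusted p = 0.3403). Its relative Ppargc1b had 25, 16.5 and 21.6 CPM in TAC and 29.6, 27.2, 31.2, 22 and 26.9 CPM in sham (-0.38 ± 0.14, adjusted p = 0.0442). Esrra, the estrogen-related receptor alpha, had 153, 159 and 197 CPM in TAC and 222, 211, 198, 236 and 190 CPM in sham (-0.32 ± 0.09, adjusted p = 0.0145). Both of the last calls were lost without the library labelled TAC 2, at adjusted p = 0.2232 for Ppargc1b and 0.0645 for Esrra. That of Esrra was also lost without TAC 1 (adjusted p = 0.0878), and that of Ppargc1b without TAC 4, sham 1, sham 3 or sham 5 (lowest adjusted p = 0.0606). With the replicate block Ppargc1b was at adjusted p = 0.0505. The calls of Ppara, Ppargc1b and Esrra were all lost under the marker scaling and with the Y-linked covariate. All were also lost within the libraries with Arntl above Dbp, and that of Ppargc1b with the clock covariate.

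**Figure D4:**
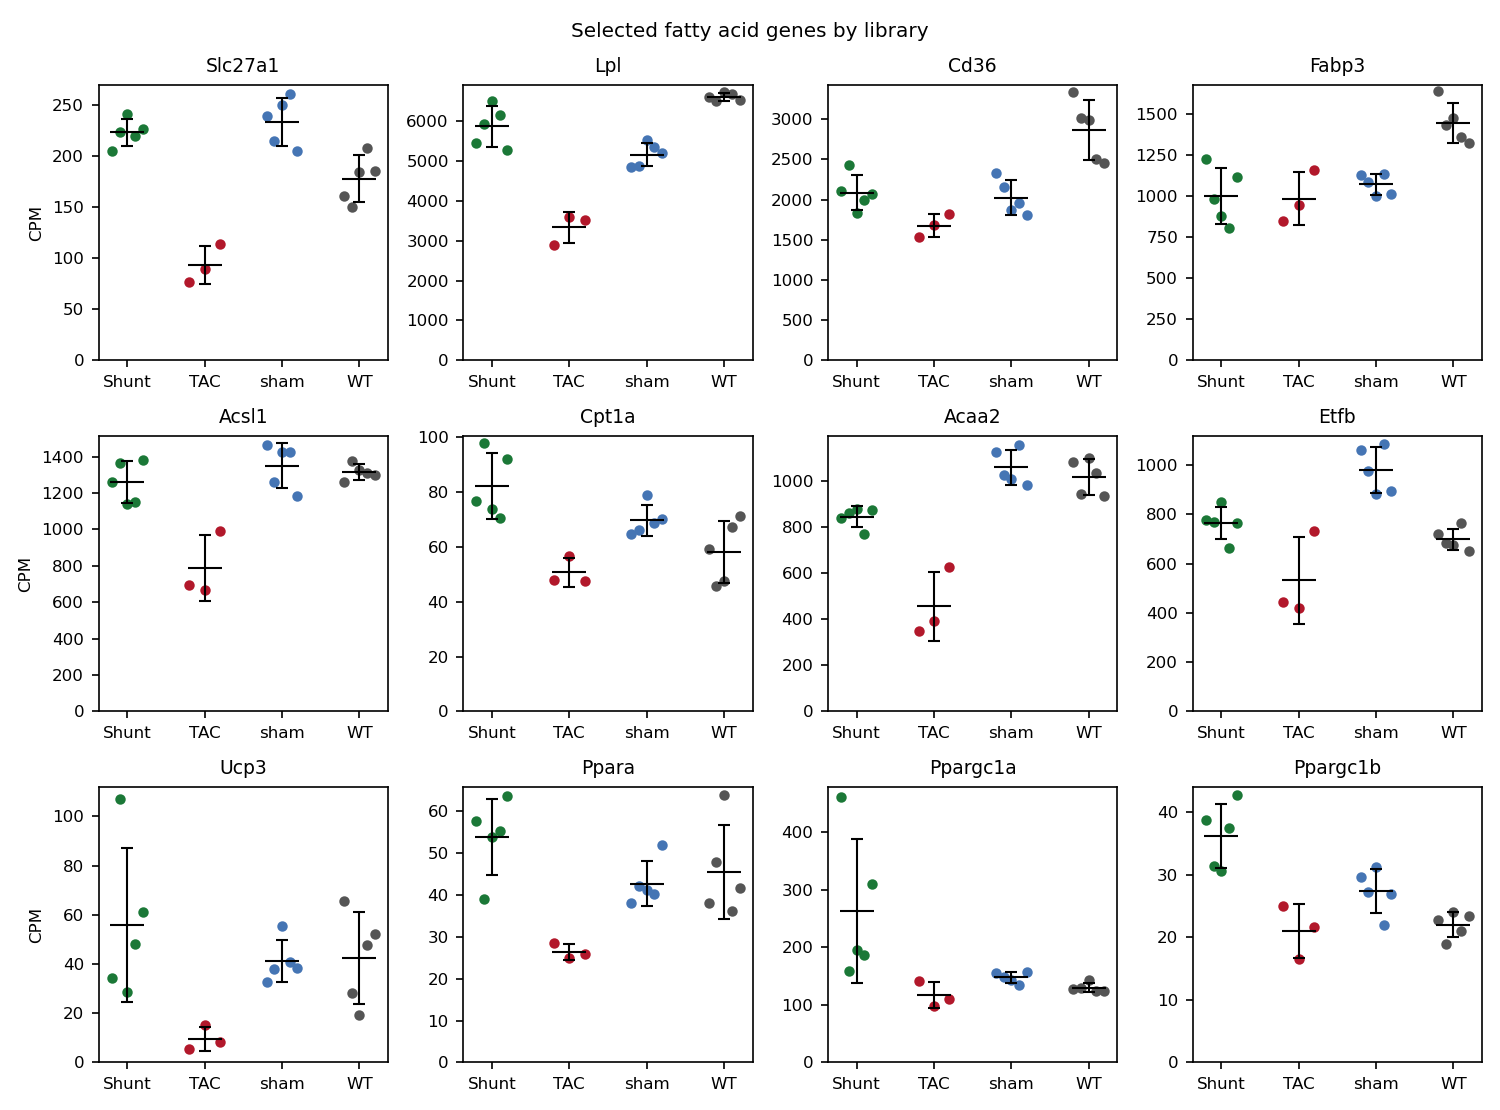
CPM of 12 of the genes in each library (points), with mean and SD of each group, for Shunt, TAC, sham and WT from left to right. Slc27a1, Acsl1, Acaa2, Ucp3 and Ppara are lowest in TAC; Cd36 and Fabp3 are highest in WT; Ppargc1a ranges from 159 to 461 CPM in Shunt.

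The TAC libraries differed among themselves. TAC 1 had the lowest level of the 3 for 25 genes, TAC 2 for 10 and TAC 4 for 1, while TAC 4 had the highest for 29. Below every sham library lay 32, 32 and 26 genes in TAC 1, 2 and 4, counts not made over all genes. TAC 4 is the library of the 3 that carries both the transgene excess and Y-linked transcripts, as the sham libraries do. With TAC 4 as the only TAC library, and its spread taken to be that of the other groups, 15 of the 36 fell, among them Slc27a1 (-1.05, adjusted p = 0.0026), Acaa2 (-0.78, adjusted p = 0.0023) and Decr1 (-0.71, adjusted p = 0.0032). Ppara was then at -0.74 and Ucp3 at -2.36, neither called. With the Y-linked level as a covariate 12 fell, and within the libraries with Arntl above Dbp, which leaves 2 sham libraries, 20 fell.

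Markers of cell types moved as well. Of 10 fibroblast markers 8 rose, summing to 4136 to 9247 CPM in TAC and 2436 to 3923 CPM in sham, and of 12 endothelial markers 7 rose. Of 12 heart muscle markers 6 fell and 2 rose, with sums of 74022 to 110295 CPM in TAC and 105521 to 122908 CPM in sham. Without the library labelled TAC 2, 5 fibroblast and 2 endothelial markers rose, and 3 heart muscle markers fell and 2 rose. The part of this in the fall of the fatty acid genes was not tested. When libraries were scaled by the heart muscle markers, which put the median of all genes at 0.32 and called 5368 of them higher and 522 lower in place of 2440 and 2160, the median of the 36 was -0.33, 17 genes fell and Fabp4 rose (0.42, adjusted p = 0.0337). Of these markers Tcap differed with clock state, at 1509 and 1195 CPM in sham 1 and 2 and 4140, 5210 and 3845 CPM in sham 3 to 5. It had 790, 662 and 1272 CPM in TAC 1, 2 and 4, and its part in the scaling was not tested. Adipocyte markers summed to at most 10.1 CPM in TAC and 5.93 CPM in sham, with Lep, Adrb3 and Ucp1 at 10 counts or fewer in every library.

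**Figure D5:**
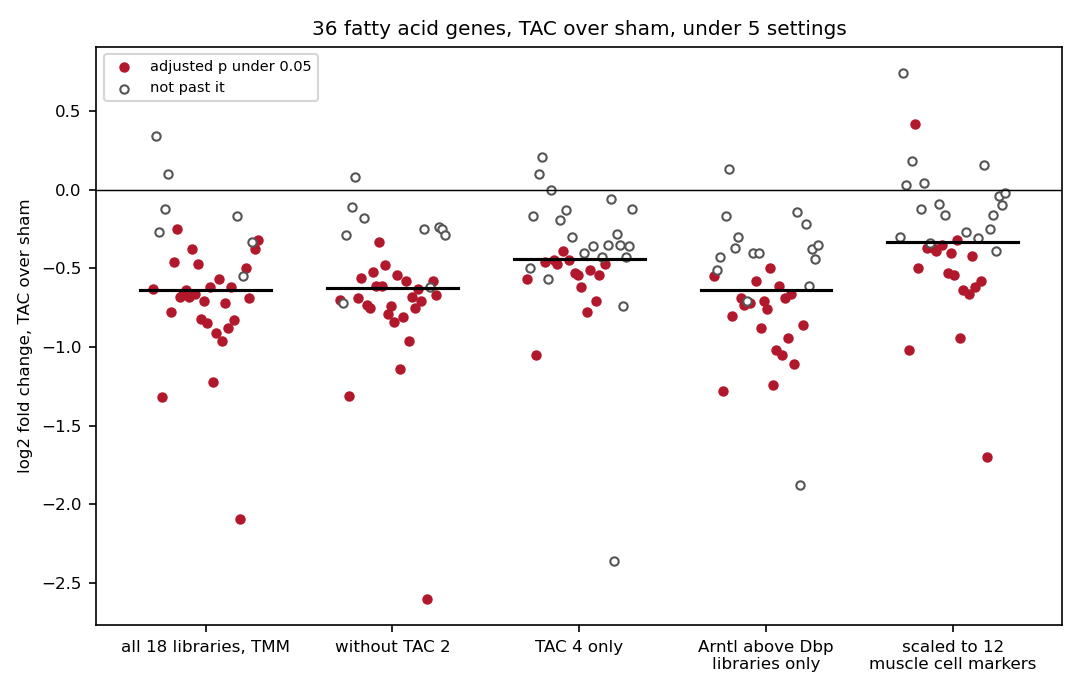
log2 fold change of the 36 genes (points) for TAC over sham under 5 settings, with filled points for an adjusted p under 0.05 and a line at the median. The median is -0.63 with all libraries and -0.33 when scaled by 12 heart muscle markers; most points are below 0 in each setting.

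Volume overload was the third question. No fatty acid gene was called in Shunt against sham: 0 rose and 0 fell, where 0.108% and 0.134% of all genes did. At an unadjusted p under 0.05, 4 of the 36 were higher and 10 lower, with no share of all genes counted at that threshold. DESeq2 called Ppargc1a higher and Acads lower. The median was -0.13, against 0.00 over all genes, with 27 genes below 0 under TMM and 20 when scaled by the heart muscle markers, a scaling that brings the median of the 36 to -0.01.

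None of the following passed the test. All 12 beta-oxidation enzymes were below 0, from -0.33 to -0.08. For 6 of them no Shunt library reached the sham range, a count not made over all genes. Acaa2 averaged 845 ± 44.6 CPM in Shunt and 1060 ± 76.1 CPM in sham (-0.33 ± 0.11, adjusted p = 0.2135), and Hadha 1747 ± 99.1 CPM in Shunt and 2078 ± 98.6 CPM in sham (-0.25 ± 0.08, adjusted p = 0.2085). Etfb, with 664 to 848 CPM in Shunt and 881 to 1083 CPM in sham, had the lowest fold change (-0.36 ± 0.12, adjusted p = 0.2085). Of the 4 regulators, 3 were above 0 and Esrra below it. Ppargc1a had 461, 159, 196, 187 and 310 CPM in Shunt, against 156, 149, 143, 134 and 157 CPM in sham. Every Shunt library was above every sham library, with Shunt 1 and 5 far above the other 3 (0.83 ± 0.22, adjusted p = 0.1351). Ppargc1b was at 36.2 ± 5.13 CPM in Shunt and 27.4 ± 3.5 CPM in sham (0.40 ± 0.12, adjusted p = 0.1673), Ppara at 53.9 ± 9.06 CPM in Shunt and 42.8 ± 5.45 CPM in sham (0.34 ± 0.14, adjusted p = 0.2989), and Esrra at 190 ± 17.2 CPM in Shunt and 211 ± 18.4 CPM in sham (-0.15 ± 0.08, adjusted p = 0.3852). In the libraries with Dbp above Arntl (5 Shunt, 3 sham), Hadh was called lower and no other gene was.

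The fourth comparison sets the 2 overloads side by side. Shunt hearts held higher levels of most of the pathway than TAC hearts: 28 of the 36 rose and 0 fell, where 13.3% of all genes rose and 13.6% fell. At an unadjusted p under 0.05, 29 were higher and 0 lower, and DESeq2 called 29 higher and 0 lower. The median was 0.51, against -0.01 over all genes, and 0.35 when scaled by the heart muscle markers, where all genes had a median of -0.20 and 599 rose and 2846 fell, in place of 1985 and 2030. Fold changes were above 0 for 34 genes, and under the marker scaling Fabp3, Fabp4, Cpt1b and Esrra, none of them called, turned below 0. Under that scaling 20 of the 36 rose. The calls of Cd36, Cpt2, Slc25a20, Acadl, Eci2, Etfdh, Acot2 and Pnpla2 were lost. This comparison and that of TAC with sham share the TAC libraries, and the values are given side by side.

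Slc27a1 had 205, 224, 241, 220 and 227 CPM in Shunt, against 77.1, 89.2 and 114 CPM in TAC (1.26 ± 0.12, adjusted p = 8.67e-06). The groups were well apart. Lpl averaged 5857 ± 504 CPM in Shunt and 3327 ± 386 CPM in TAC (0.82 ± 0.09, adjusted p = 1.04e-05), and Cd36 2085 ± 216 CPM in Shunt and 1677 ± 143 CPM in TAC (0.31 ± 0.11, adjusted p = 0.0477). The Cd36 call was lost without any 1 of 6 libraries (Shunt 1, 2, 4 and 5 and TAC 1 and 2; adjusted p = 0.0584 to 0.1740) and under the marker scaling (0.12, adjusted p = 0.6153). Fabp3 and Fabp4 were at 0.02 and 0.06 and not called.

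Acsl1 had 1263, 1364, 1141, 1152 and 1382 CPM in Shunt, against 697, 667 and 994 CPM in TAC (0.68 ± 0.11, adjusted p = 4.00e-04). Cpt1a had 76.7, 98, 74, 70.5 and 91.9 CPM in Shunt, against 47.9, 56.8 and 47.5 CPM in TAC (0.70 ± 0.14, adjusted p = 0.0016). Neither overlapped between groups. Cpt2, Slc25a20 and Mlycd rose; the call of Slc25a20 was lost without TAC 1 (0.22, adjusted p = 0.1084) and that of Mlycd without TAC 1 or TAC 2 (adjusted p = 0.0741 to 0.0841). Cpt1b was not called (0.14 ± 0.09), and Cpt1a over Cpt1b was 1.65 to 2.22 in Shunt and 0.985 to 1.61 in TAC, without overlap, subject to the doubt on Cpt1b.

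In beta-oxidation 11 of 12 rose, all but Acads (0.21 ± 0.08, adjusted p = 0.0645). Hadhb, whose window is printed above, had 250, 291, 285, 273 and 268 CPM in Shunt, against 149, 179 and 202 CPM in TAC (0.63 ± 0.08, adjusted p = 6.97e-05). Acaa2 was again the largest of the step (0.89 ± 0.14, adjusted p = 2.12e-04), and Acadl the smallest of those called (0.26 ± 0.09, adjusted p = 0.0316), lost without any 1 of 5 libraries (Shunt 1, 2 and 5 and TAC 1 and 2; adjusted p = 0.0520 to 0.1645). Hadha over Hadhb was 5.9 to 6.97 in Shunt and 6.11 to 7.19 in TAC, so their proportion overlapped between the overloads. Etfa had 644, 759, 712, 650 and 661 CPM in Shunt, against 425, 420 and 524 CPM in TAC (0.59 ± 0.08, adjusted p = 1.11e-04). Etfb and Etfdh rose by 0.52 ± 0.14 and 0.50 ± 0.08, the first not being called without TAC 1 or TAC 2 (adjusted p = 0.0645 to 0.0752).

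Ucp3 had 34.4, 107, 28.8, 48.1 and 61.1 CPM in Shunt, against 5.59, 15.1 and 8.12 CPM in TAC, a level 5.8 times as high (2.54 ± 0.50, adjusted p = 0.0019). Its spread within Shunt was wide, yet the lowest Shunt library was above the highest TAC library. Pnpla2 had 401, 376, 401, 385 and 414 CPM in Shunt, against 234, 321 and 330 CPM in TAC (0.42 ± 0.14, adjusted p = 0.0321), and its call was lost without TAC 1, Shunt 3 or Shunt 5 (adjusted p = 0.0553 to 0.1776). Acot2 rose (0.68 ± 0.21), not called without TAC 1, TAC 2 or Shunt 2 (adjusted p = 0.0516 to 0.1290), and Acot13 and Plin5 were not called.

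Of the regulators, 3 of 4 rose. Ppara had 57.8, 39.1, 53.8, 55.3 and 63.6 CPM in Shunt, against 28.5, 24.9 and 25.9 CPM in TAC (1.03 ± 0.17, adjusted p = 4.53e-04). Ppargc1a averaged 262 ± 125 CPM in Shunt and 117 ± 22.1 CPM in TAC (1.16 ± 0.26, adjusted p = 0.0039), and Ppargc1b 36.2 ± 5.13 CPM in Shunt and 21 ± 4.28 CPM in TAC (0.78 ± 0.14, adjusted p = 6.50e-04). None of the 3 overlapped between groups. Esrra was not called (0.17 ± 0.09, adjusted p = 0.1946). No library of one overload shares the clock state of the other, so clock state and operation cannot be told apart here. With the Arntl and Dbp difference as a covariate 26 genes rose, Acadl, Etfb and Pnpla2 no longer being called and Plin5 being called. The fit without TAC 4 keeps TAC 2, which shows no transgene excess. Without TAC 4, which leaves libraries low in Y-linked transcripts in both groups, 31 rose; without the library labelled TAC 2, 23 rose; with TAC 4 alone, 8 rose.

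Beyond the 36, 99 further genes of the pathway were counted in 7 lists, of which 96 passed the filter. After TAC 38 fell (39.6%, against 14.5% of all genes) and 7 rose (7.3%, against 16.4%), the median being -0.20, and without the library labelled TAC 2 there were 37 and 3. In Shunt against TAC 33 rose (34.4%, against 13.3% of all genes) and 5 fell (5.2%, against 13.6%), and without TAC 2 there were 31 and 3. In Shunt against sham 0 were called (7 higher and 10 lower at an unadjusted p under 0.05, and 2 and 2 by DESeq2). In sham against WT 34 fell (35.4%, against 14.9% of all genes) and 12 rose (12.5%, near the 13.5% of all genes). Within the libraries with Arntl above Dbp, 17 fell and 3 rose after TAC, and 15 fell and 0 rose in sham against WT. Peroxisomal oxidation, which shortens very long chains, fell in 10 of 17 genes after TAC, and in 11 without TAC 2. Pex11a, a peroxisome division factor, was at -0.89 ± 0.10, Ehhadh, the bifunctional enzyme, at -0.93 ± 0.13 and the very long-chain transporter Abcd2 at -1.17 ± 0.17. In sham against WT 8 of 17 fell. Both comparisons share the sham libraries.

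In the list of further activation and carnitine genes 4 of 9 fell after TAC: Crat, carnitine acetyltransferase (-0.66 ± 0.08), Acacb, the acetyl-CoA carboxylase whose malonyl-CoA restrains the shuttle (-0.62 ± 0.09), the carnitine importer Slc22a5 (-0.52 ± 0.08) and Acss1. The synthetase Acsl5 rose there, at 35.6 CPM in TAC and 24.6 CPM in sham (0.53 ± 0.09, adjusted p = 4.36e-04). In this list 5 genes fell and 1 rose without TAC 2. In further mitochondrial oxidation 8 of 11 fell and 1 rose, and without TAC 2 there were 7 and 1. Among those that fell were the thioesterase Acot7 (-0.62 ± 0.09), Acat1, the acetoacetyl-CoA thiolase (-0.42 ± 0.07), and Acot11 (-0.55 ± 0.10). Of 18 triglyceride genes 4 fell and 1 rose, and without TAC 2 there were 4 and 0. Lpin1 fell (-0.43 ± 0.09), as did the perilipin Plin4 (-0.48 ± 0.14, not called without TAC 2, at adjusted p = 0.0713). Dgat2, the last step of triglyceride synthesis, was called lower (-1.33 ± 0.39), with 81.7, 179 and 113 CPM in TAC, against 153 and 147 CPM in sham 1 and 2 and 404, 447 and 409 CPM in sham 3 to 5. The TAC libraries overlap the 2 sham libraries of their own clock state, within which Dgat2 was not called (-0.27, adjusted p = 0.5667), nor was it with the clock covariate (-0.41, adjusted p = 0.2171). Of further uptake and binding genes 2 of 8 rose after TAC: Slc27a6, at 1.01 CPM in TAC and 0.315 CPM in sham, and Fabp5, at 11.7 CPM in TAC and 7.8 CPM in sham, not called without TAC 2 (adjusted p = 0.0790).

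Among 9 tested PPAR targets outside the 36, 4 fell after TAC, and 5 did without TAC 2. The 4 were led by Slc25a42, a mitochondrial coenzyme A carrier (-0.89 ± 0.14), Fitm1 (-1.02 ± 0.16) and Fitm2 (-0.57 ± 0.13). Fitm1 and Fitm2 act in lipid droplet formation. Pdk4, the pyruvate dehydrogenase kinase that PPARα induces, was not called in any comparison, with 356 ± 179 CPM in Shunt, 355 ± 248 CPM in TAC, 296 ± 123 CPM in sham and 389 ± 138 CPM in WT. Among 24 further regulators 8 fell and 2 rose after TAC, and without TAC 2 there were 5 and 0. Rxrg, a partner of PPARα, fell, with 54.1 ± 10.7 CPM in TAC and 85.9 ± 8.95 CPM in sham (-0.67 ± 0.12, adjusted p = 4.14e-04), as did Rxra (-0.48 ± 0.10) and the deacetylase Sirt1 (-0.40 ± 0.08). Klf15, a factor of heart lipid use, was at 88.6 ± 20.9 CPM in Shunt and 33.2 ± 7.05 CPM in TAC (1.42 ± 0.31, adjusted p = 0.0032), at adjusted p = 0.0556 with the clock covariate (0.63). In TAC against sham it was called lower (-0.83 ± 0.30, adjusted p = 0.0469), with 27.8, 30.7 and 41.2 CPM in TAC, against 38.2 and 44.5 CPM in sham 1 and 2 and 64.1, 67.5 and 80.9 CPM in sham 3 to 5. TAC overlaps the sham libraries of its own clock state, within which Klf15 was not called (-0.32, adjusted p = 0.3680), nor was it without TAC 2 (adjusted p = 0.1454) or with the clock covariate (-0.20, adjusted p = 0.4892). Esrrg was not called in any comparison, with 78.2 ± 5.47 CPM in Shunt, 70.3 ± 12.5 CPM in TAC, 78.1 ± 6.38 CPM in sham and 86.8 ± 5.1 CPM in WT.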

How the data were processed

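RNA of mouse left ventricle was sequenced in 18 libraries (RNeasy Fibrous Tissue and TruSeq RNA v2 kits, per the labels' protocols). The authors deposited, for each library, unscaled read counts by Ensembl identifier. Of the tools in the submitters' processing notes, HTSeq 0.6.1p1 counts reads over genes and STAR 2.3.0e aligns them; the notes also list SAMtools 0.1.19, CASAVA 1.8.2, FastQC and DESeq2 1.8, and the builds GRCm38 and mm10; the annotation release and strand setting are not given in the sources used here. The 5 summary lines of each table were left out of library sizes; reads in no gene were 13.64% to 22.78%. Symbols, positions and exon lengths came from GENCODE M21, matching 36602 of 38355 identifiers, and promoter windows from RefSeq.

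From the counts, edgeR 4.0.16 in R 4.3.3 gave CPM with TMM factors, a filter (filterByExpr, minimum count 10, 14876 genes kept) and a quasi-likelihood F test with robust estimation, 1 mean per group over all 18 libraries, at a common biological coefficient of variation of 0.16. Calls are at a Benjamini-Hochberg adjusted p under 0.05 over all genes of a comparison, and an SE was taken as |log2 fold change| divided by the root of the F statistic. The method was tested on simulated data. No 2 libraries of a group agreed within counting noise (lowest chi-square per gene 6.72).

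Replicate numbers were checked as pairs by the correlation of residuals: 0.129, 0.151 and 0.157 for TAC and sham, above the limit of 0.1. Of these TAC libraries only TAC 4 correlated best with the sham library of its own number. The labels name no pairs, and this check does not show that the numbers mark them. The replicate block is therefore given only as an alternative fit. The other comparisons did not pass the limit. In Shunt against TAC the values were 0.17, 0.139 and 0.0928, each the best match of its Shunt library. Alternatives were relative log expression and heart muscle marker scaling, no or a stricter filter (1 CPM in 3 libraries), DESeq2 1.42.0, each pair of groups alone, the replicate block, clock, Y-linked and atrial covariates, libraries of a single clock state, TAC replicate 4 alone, and each library left out. For the further lists and the markers, the fits without TAC replicate 2, within libraries with Arntl above Dbp and with the clock covariate were added after seeing the data. Per-library values are given for the called gene of each step with the smallest p in a comparison and, for TAC, for a set panel of uptake genes, carnitine palmitoyltransferases, Ucp3 and regulators; from the further lists, up to 3 called genes by smallest p and Pdk4, Rxrg, Esrrg and Klf15. The ratios of 2 genes and the genes shown for their promoters were picked with values in view. The members, lists and tests were chosen with earlier results of these data known. Some genes of the further lists are not reported here by name.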

Additional observations from a re-analysis of the deposited data

Results flagged for a closer look

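In 3 of the 108 sets of 5 libraries tested (36 genes in Shunt, sham and WT), 1 library stood apart from the other 4 of its group; chance gives about 1 in 20. Angptl4 was at 20.2 CPM in WT 1, against 3.45 to 6.91 CPM in the other WT libraries. Cpt1b was at 48.9 CPM in Shunt 5, against 42.5 to 44.2 CPM in the other Shunt libraries. Ppargc1a was at 143 CPM in WT 3, against 124 to 129 CPM in the other WT libraries. TAC, with 3 libraries, was not tested this way.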

How the results depend on the processing

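Of the 36 genes, those lower after TAC numbered 28 with the replicate block (Cpt1b and Ppargc1b lost, Cd36 gained), 17 with heart muscle marker scaling (and 1 higher), 12 with the Y-linked covariate and 15 with TAC replicate 4 alone. Cpt1b turned to 0.04 under the marker scaling (adjusted p = 0.8188) and to 0.03 with the Y-linked covariate (adjusted p = 0.9186); the cause was not tested. All genes called for TAC and sham were 1495 within libraries with Arntl above Dbp, 475 with the Y-linked covariate and 742 with TAC 4 alone, the last being a fit with fewer TAC libraries. For sham and WT, genes of the 36 called higher were 1 with marker scaling, 4 with those groups alone, 0 with Arntl above Dbp and 1 with Dbp above Arntl; 3 and 7 were lower in these clock states, with 1139 and 1809 of all genes called. For Shunt and sham, DESeq2 called 1 higher and 1 lower and libraries with Dbp above Arntl 1 lower, and all genes called were 228 with DESeq2, 58 with the clock covariate, 59 with Dbp above Arntl and 0 with the Y-linked covariate. For Shunt and TAC, 8 were higher with TAC 4 alone, where Acadl was at -0.00 (adjusted p = 0.9944), and all genes called were 732, and 2130 with the clock covariate. Leaving out 1 library at a time gave 25 to 29 lower after TAC, 21 to 31 higher in Shunt against TAC (fewest without TAC 1), 2 to 3 higher and 11 to 12 lower in sham, and 0 in Shunt against sham; all genes called were 3257 to 4924, 2703 to 4356, 3372 to 3926 and 21 to 41. Among the further genes, Acot11 was called higher for sham and WT in the main fit (0.26, adjusted p = 0.0322). In the clock state of high Arntl it was at -0.00 (adjusted p = 0.9996). The block changed no other call count by over 1.5 times. Depth limits chiefly Angptl4, at 54 to 601 counts.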
